A study of Mus musculus with 6 samples.

Results

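Growth plates of E17.5 mouse embryos were profiled for genes of the epidermal barrier and of skin appendages, a set of 8 genes chosen by gene symbol (Lor, Krtdap, Dsp, Sfn, Trp63, Cnfn, Klk15 and Edar) from the authors' table of transcripts compared between genotypes, with earlier results of that contrast known. Of the 8 genes, 6 had a transcript identifier among the 7671 rows of that table, and 2 of these, Edar (uc007fdh.2) and Klk15 (uc009gnz.1), were also among the 21929 identifiers with an estimated count in each library. The identifiers of Dsp, Sfn, Trp63 and Cnfn were not among the counted ones, and Lor and Krtdap had no row, so the levels of these 6 genes were not analysed here. Because the members were chosen with the genotype contrast in view, their levels and differences are given as a description, and nothing is inferred from a p-value of a member.

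The 6 libraries came from 3 TET1+/+ and 3 TET1-/- growth plate samples of a C57BL/6 x 129S4/SvJae background, the latter lacking Tet1 in the whole animal, and no other treatment was applied. Per the study's methods, hind limb cartilage was dissected with skin and bone taken off, ground and extracted, so each library is a piece of tissue and not a sorted cell population. Ribosomal RNA was removed, the remaining RNA went into strand-specific libraries, and all 6 shared a lane. Counted totals ran from 196075 to 422436 per library, between 4827 and 6350 identifiers had a count, and the largest count of any transcript was 1979. The identifier of Tet1 was not counted, so no genotype label could be set against the targeted gene. Of 44 marker genes of cartilage, osteoblast, muscle, fibrous tissue, erythroid and endothelial cells, 0 had a counted identifier with a symbol here. That does not show a lack of counts, and the labelled tissue was not checked against its markers either. TET1-/- replicate 1 tended to be the least like the others. Spearman's rho across transcripts between it and each other library was 0.549 to 0.582, and 4 of these 5 pairs were below all 10 pairs without it (0.563 to 0.663). The margin was small, since TET1-/- replicate 3 had 0.563 and 0.569 with TET1+/+ replicates 1 and 2. Fewer cells of a type and less RNA per cell cannot be told apart in such bulk samples.

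The outer layer of the skin is built by keratinocytes, which hold together through desmosomes and, as they mature, replace their membrane with a cross-linked protein envelope. Lor and Cnfn encode proteins of that envelope, Krtdap a small secreted protein of differentiating keratinocytes, and Dsp the desmosomal plaque protein desmoplakin. Trp63 encodes the transcription factor on which stratified epithelia depend, and Sfn an epithelial member of the 14-3-3 family. Klk15 belongs to the kallikrein-related serine proteases, several of which cut the junctions of shedding keratinocytes. Edar is the receptor for ectodysplasin, the signal that sets out hair follicles, teeth and sweat glands in the embryonic ectoderm. Cartilage contains no keratinocytes.

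In GENCODE vM21, on GRCm38 (mm10), Edar spans chromosome 10 from 58600789 to 58675654 and is read from the minus strand. Its annotated transcript has 12 exons and 3637 bases, and no other gene overlaps it. It lies 4.13 Mb from Tet1, which is on the same chromosome from 62804570 to 62908996. Klk15 spans chromosome 7 from 43933740 to 43939639 on the plus strand, with 5 exons and 845 bases in its longer transcript, and the antisense gene Gm44756 overlaps it. It stands between Klk4 and Klk1b8, among 26 kallikrein genes, itself included, within 500 kb of it on either side. Reads of such related genes and of an overlapping gene may be split by the counting, whose use of strand is not given in the sources used here, so the Klk15 count is less certain than that of Edar.

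The 250 bases before the start sites of both counted genes are shown because these genes were high in the same library. They come from RefSeq on GRCm38.p6, which has a window for 7 of the 8 genes, and are written 5′ to 3′ on the strand of the gene, with matches to the searched motifs in capitals. The Edar window is chr10:58675697-58675946 on the minus strand, and the Klk15 window is chr7:43931425-43931674 on the plus strand.
Edar: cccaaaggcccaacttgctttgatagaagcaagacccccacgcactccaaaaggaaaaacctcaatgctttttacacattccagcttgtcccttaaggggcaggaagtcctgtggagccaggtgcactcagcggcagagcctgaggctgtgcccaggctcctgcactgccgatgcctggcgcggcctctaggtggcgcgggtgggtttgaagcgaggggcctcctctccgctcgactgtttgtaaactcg
Klk15: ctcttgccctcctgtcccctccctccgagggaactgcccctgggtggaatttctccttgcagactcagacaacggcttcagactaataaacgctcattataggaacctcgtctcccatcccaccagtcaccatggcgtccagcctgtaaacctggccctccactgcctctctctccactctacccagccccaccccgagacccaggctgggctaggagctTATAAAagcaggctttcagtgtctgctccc

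The motifs searched on both strands were a TATA box (TATAAA), an AP-1 site (TGANTCA) and a GC box (GGGCGG). The Klk15 window holds a TATA box that starts 30 bases before the start site, and 12.4% of 32851 RefSeq windows of the same length hold at least 1 TATA box at any place. The Edar window holds none of the 3 motifs and so has no capitals, and neither window holds an AP-1 site (6.75% of all windows) or a GC box (32.7%). CG dinucleotides, the sites at which TET enzymes oxidize methylated cytosine, number 11 in the Edar window and 6 in the Klk15 window, against a median of 6 over all windows. The RefSeq start of Klk15 is 2065 bases before its first GENCODE start, so the Klk15 window holds for the RefSeq start only.

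Edar was counted in 5 of the 6 libraries. The TET1+/+ libraries had 0, 13 and 8 counts in replicates 1, 2 and 3, and the TET1-/- libraries had 808, 14 and 61. Every TET1-/- library was thus above every TET1+/+ library, but TET1-/- replicate 2 was above TET1+/+ replicate 2 by a single count. Scaled to CPM (counts per 1000000 of the counted total of a library), Edar was at 0, 47.7 and 23.9 CPM in the TET1+/+ libraries and at 2375, 50.3 and 144 CPM in the TET1-/- libraries. In order of level, TET1-/- replicate 1 stood first with a 95% Poisson interval of 2214 to 2544 CPM, and TET1-/- replicate 3 came next at 110 to 186 CPM. The intervals of TET1-/- replicate 2 (27.5 to 84.3 CPM) and TET1+/+ replicates 2 (25.4 to 81.6 CPM) and 3 (10.3 to 47.1 CPM) overlap, so these libraries were not told apart at this depth. The count of 0 in TET1+/+ replicate 1, the library with the lowest total, allows up to 3 counts or 15.3 CPM by the limit used here for a count of 0; the upper end of its 2-sided 95% Poisson interval, as plotted, is 3.69 counts or 18.8 CPM. Intervals and limits cover counting error only.

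**Figure D1:**
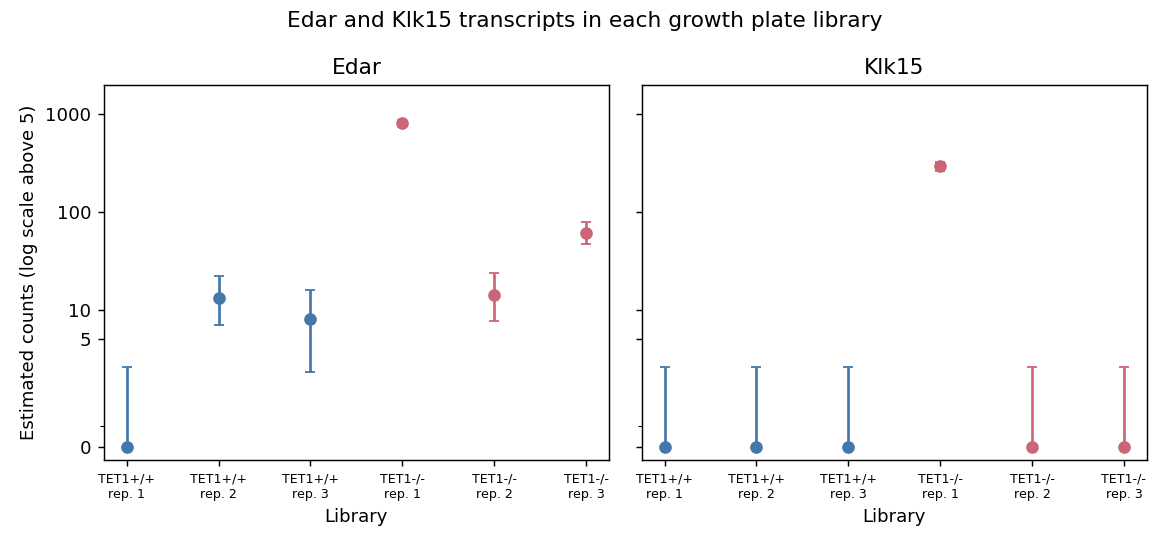
Estimated counts of Edar (left) and Klk15 (right) in each library, on an axis that is linear to 5 and logarithmic above; points are single libraries (blue TET1+/+, red TET1-/-) and bars are 95% Poisson intervals. TET1-/- replicate 1 holds 808 Edar and 293 Klk15 counts, and the other 5 libraries hold at most 61 Edar counts and 0 Klk15 counts.

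The Klk15 identifier was counted in 1 library only. It stands for a single transcript, while GENCODE lists 2 for Klk15. The counts of 0 below hold for that identifier, and whether reads went to another transcript of the gene was not tested. TET1-/- replicate 1 had 293 counts, or 861 CPM (95% Poisson interval 765 to 966 CPM), and the other 5 libraries had 0. By the limit of 3 counts, a count of 0 allows 7.10 to 15.3 CPM in these libraries (8.73 to 18.8 CPM by the upper end of the Poisson interval). Set against the limit of 3 counts, Klk15 at 861 CPM in TET1-/- replicate 1 was at least 56.3-fold higher than in TET1+/+ replicate 1. Against TET1-/- replicate 3 it was at least 121-fold higher, and neither bound takes in the counting error of the 861 CPM. The other TET1-/- libraries were therefore as low as the TET1+/+ libraries at this depth, and the groups overlap.

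By genotype, Edar averaged 23.9 ± 23.9 CPM (SD, n = 3) in TET1+/+ and 856 ± 1316 CPM (SD, n = 3) in TET1-/- libraries. Without TET1-/- replicate 1 the TET1-/- mean was 97.3 ± 66.6 CPM (SD, n = 2). Klk15 averaged 287 ± 497 CPM (SD, n = 3) in TET1-/- libraries, and without replicate 1 both genotypes are at 0 in every library. In both genes the SD over the TET1-/- libraries exceeds their mean. Edar alone passed the filter on low counts, and edgeR's quasi-likelihood fit over 3503 transcripts gave it a log2 change of 5.26 (standard error 1.96), which became 2.07 (standard error 1.47) without TET1-/- replicate 1 and 3.22 (standard error 2.54) with the replicate number as a block. Over all 3503 transcripts, edgeR called 0 (0.0%) at a Benjamini-Hochberg adjusted p under 0.05, while 161 had an unadjusted p under 0.05 and DESeq2 called 48 by its adjusted p. By unadjusted p, 2.26% of the transcripts were higher in TET1-/- libraries, and in 6.02% every TET1-/- library was above every TET1+/+ library, as for Edar. Since the members were chosen on this contrast, nothing is read from these shares.

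The fold between TET1-/- replicate 1 and the other libraries was large for Edar as well. It was 16.4-fold against TET1-/- replicate 3, 47.3-fold against TET1-/- replicate 2, 49.7-fold against TET1+/+ replicate 2 and 99.4-fold against TET1+/+ replicate 3. Within TET1-/- replicate 1, Edar had the 22nd largest count of 5734 counted identifiers and Klk15 the 238th. Other counted transcripts with a symbol ranked as high. Arl5c was 4th in TET1-/- replicate 1, and Grip2 was 261st there and 2nd to 20th in the other libraries. Edar was 1712th of 6350 in TET1-/- replicate 3, 2802nd of 5479 in TET1-/- replicate 2, 2875th of 5360 in TET1+/+ replicate 2 and 3806th of 5825 in TET1+/+ replicate 3, and it was not counted in TET1+/+ replicate 1. The share of counted identifiers below the receptor gene was 99.6% in TET1-/- replicate 1 and 31.9% to 72.8% in the other libraries that counted it.

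Both genes were set beside the other epidermal and appendage genes. Of 86 genes in 6 lists (keratins, envelope, junctions, proteases, regulators and the ectodysplasin pathway), 52 had an identifier in the authors' table and 4 were counted: Edar, Klk15, Krt42 and Calm5. Krt42 (uc007lku.1), a type I keratin gene, had 340 counts in TET1-/- replicate 1 and 0 in the other 5 libraries, as Klk15 did. Calm5 (uc011yvy.1, written CALM5 in the table), a calmodulin-like gene of the epidermis, had 255 counts there, 0 and 11 in TET1-/- replicates 2 and 3, and 0, 7 and 5 in TET1+/+ replicates 1, 2 and 3. By CPM, all 4 counted epidermal genes were highest in TET1-/- replicate 1, and so were 3 of the other 6 counted transcripts with a symbol (Arl5c and, at 12 and 10 counts, Gm8692 and Snord93). Of the 3216 transcripts with at least 100 counts in all, 19.5% were highest in that library. The lists and the members were chosen with earlier results of these data known, so nothing is read from this comparison. That library held 89.9% of the summed CPM of Edar, 91.8% of that of Calm5 and 100% of those of Klk15 and Krt42. Skin was taken off before extraction, and the part of other tissue in this library was not tested. For 82 of the 86 genes no counted identifier was known, which is not a count of 0, since most counted transcripts have no symbol here.

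**Figure D2:**
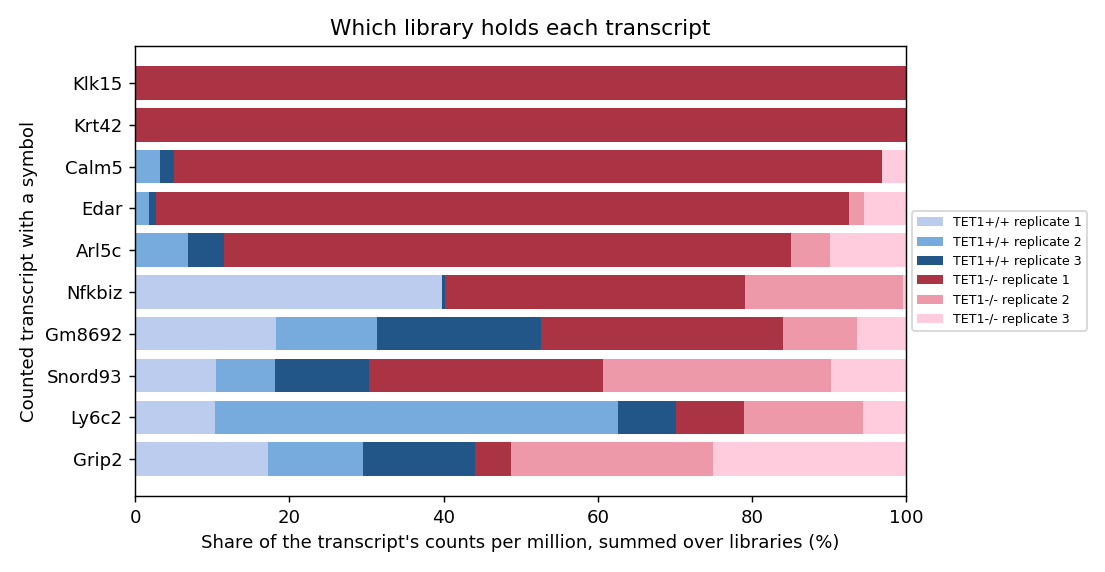
Share of each transcript's CPM, summed over the 6 libraries, that each library holds, for the 10 counted transcripts with a gene symbol; blue shades are TET1+/+ and red shades TET1-/- libraries. TET1-/- replicate 1 (darkest red) holds 89.9% of Edar and 100% of Klk15.

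Of the 10 counted transcripts with a symbol, those whose log2(CPM + 1) over the 6 libraries was most like that of Edar were Arl5c (Pearson r = 0.95), Calm5 (0.84) and, with the same rounded value, Klk15 and Krt42 (0.74). For Klk15 they were Krt42 (r = 1.0), Calm5 (0.78) and Edar (0.74). These values share the libraries and rest in part on zeros, and every one for Klk15 rests on TET1-/- replicate 1 alone. Without that library Edar kept an r of 0.97 with Arl5c and 0.62 with Calm5, while Klk15 has no value to correlate. Arl5c (uc011ydy.1), a gene of the ARF-like small GTPases that no epidermal list holds, had 1249 counts in TET1-/- replicate 1 and 70 and 209 in TET1-/- replicates 2 and 3. In TET1+/+ replicates 1, 2 and 3 it had 0, 93 and 78 counts, so it, too, had 0 counts in the library where Edar had 0.

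Edar and Klk15 did not keep the ratio of TET1-/- replicate 1 in TET1-/- replicate 3, the library with the next most Edar counts. In TET1-/- replicate 1 there were 808 Edar and 293 Klk15 counts, and at that ratio the 61 Edar counts of TET1-/- replicate 3 would go with 22.1 Klk15 counts. That library had 0, which allows up to 3 by counting error alone. At the same ratio 25.7 Krt42 and 19.3 Calm5 counts would go with the 61 Edar counts, and 0 and 11 were counted. The ratio comes from 1 library and the spread between libraries was not taken in, so these departures were not tested. In the other libraries the ratio gives at most 5.08 Klk15 counts, so the depth there leaves little to compare.

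Counts gathered in a single library were not limited to the named genes, although most counted transcripts have no symbol here. Among the same 3216 transcripts, TET1-/- replicate 1 held at least the share of summed CPM that it held of Edar for 54 (1.68%). In the other libraries the same share was reached by 6 to 32 transcripts, the most in TET1-/- replicate 3. For 28 transcripts, Klk15 and Krt42 among them, every count lay in TET1-/- replicate 1, against 2 to 22 in the other libraries. Klk15 and Krt42 reached the 100 counts through that library alone, and the share of Edar there was itself the limit. Their place in the upper tail was thus fixed by these choices, and nothing is read from it. The median share of TET1-/- replicate 1 over all 3216 transcripts was 13.8%. The part of this library in the values of Edar and Klk15 is that given above, with and without it.

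**Figure D3:**
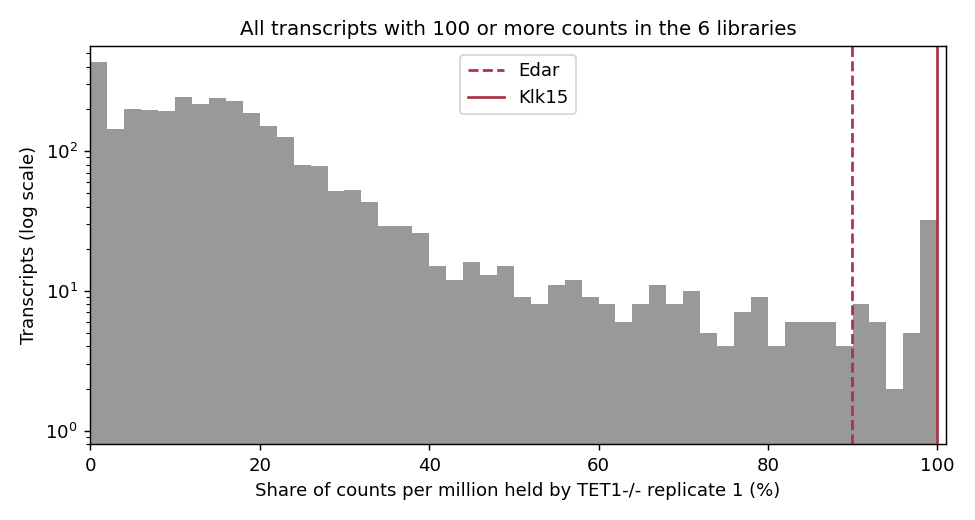
Number of transcripts (log axis) by the share of their summed CPM held by TET1-/- replicate 1, for the 3216 transcripts with at least 100 counts. Edar at 89.9% (dashed line) and Klk15 at 100% (solid line) stand in the upper tail, where 54 transcripts have the share of Edar or more, and the median is 13.8%. The share of Edar is itself the limit, and Klk15 reached 100 counts through this library alone.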

How the data were processed

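Total RNA of growth plates in 3 TET1+/+ and 3 TET1-/- samples was sequenced, and genotype and replicate number were taken from the labels. By the paper's methods and the labels, the authors trimmed reads with Trimmomatic, mapped them to mm10 with HISAT2, assembled transcripts in StringTie and used Ballgown to compare the genotypes. The authors deposited estimated counts per UCSC transcript identifier for each library, without scaling; they are whole numbers as deposited, and the step that made them is not given in the sources used here. From the table of the authors' comparison only the identifiers and gene symbols were used; its fold changes, p-values and q-values were not. The table names 6612 of its 7671 identifiers, and 10 of the named ones are counted. Only 21 of its identifiers, named or not, are among the counted ones. Whether each symbol holds for its counted identifier was not tested.

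Members and gene lists were chosen with earlier results of these data known. The genes named are the 8 members, every counted gene of the lists and the 3 counted genes most like each counted member. The counted totals (196075 to 422436) served as library sizes. They are far below the average read number that the study's methods state, so the counts appear to hold a small part of each library, and CPM is relative to that part only. Counts were fitted over all transcripts with edgeR 4.0.16 in R 4.3.3 (quasi-likelihood test, robust, TMM, filterByExpr, genotype as the only term, Benjamini-Hochberg adjustment). The alternatives were DESeq2 1.42.0, library size only, no low-count filter, limma 3.58.1 on log2(CPM + 1), the replicate block, each library left out and, chosen after seeing the data, a common library size. The share of a transcript's CPM in TET1-/- replicate 1 and the ratio to Edar were chosen after the values were seen. The fit was tested on drawn counts with known changes, for the size of the fitted changes and not for how many are called. The standard errors printed with edgeR's log2 changes are approximate. Each was derived as the change divided by the square root of the F statistic of its test. The common dispersion of the counts was 0.787. No library repeats another: chi-square over degrees of freedom was 19.2 or more for every pair. Whether the samples of a genotype came from separate litters is not stated in the labels, so spreads are those between these samples. Positions are from GENCODE vM21 and promoters from RefSeq, both matched by symbol. Python 3.11.15 and scipy 1.17.1 served the other steps.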

Additional observations from a re-analysis of the deposited data

How the results depend on the processing

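edgeR with TMM gave 0 transcripts at an adjusted p under 0.05, and the number was also 0 under the replicate block, under either other library size (unadjusted totals or a common one) and in the fits that each left out a library (0 to 0). DESeq2 gave 48, dropping the low-count filter gave 3, with 9443 transcripts tested in place of 3503, and 3 were called by limma on log2(CPM + 1). At an unadjusted p under 0.05 it was 161, and DESeq2 gave 299, the unfiltered fit 413 and limma 243. Leaving out a library gave 148 to 316, the highest when TET1-/- replicate 2 was left out, and 258 when TET1+/+ replicate 3 was. The number of transcripts tested differed between some of these fits. DESeq2 and limma were given the same 3503 as the main fit, but DESeq2's own later filtering was left at its defaults, and how many it set aside was not recorded. The cause of the differences was not tested. Higher transcripts made up 49.1% of the 161 and from 41.2% (without TET1-/- replicate 3) to 69.9% (common library size) in the alternatives, with 43.2% for library size only and for limma, 46.8% without TET1-/- replicate 1, 59.2% without TET1-/- replicate 2, 62.2% with no filter and 67.8% without TET1+/+ replicate 3. The median log2 change of all transcripts was 0.30 under the common size and 0.19 in the unfiltered fit.

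As a description of a gene chosen on this contrast, the log2 change of Edar ran from 2.07 without TET1-/- replicate 1 to 6.16 without TET1+/+ replicate 2. With the replicate block it was 3.22, and 124 transcripts had an unadjusted p under 0.05. Whether same-numbered libraries were paired is not stated in the labels, and the paper speaks of TET1+/+ littermates without matching libraries. The deviations of same-numbered libraries from the group means had correlations of 0.0288, -0.0326 and 0.16. Those of differently numbered libraries were -0.118 to 0.08. So few values cannot decide whether the libraries were paired. Klk15 did not pass the low-count filter, and no fitted value is given for it. The mean of Edar in TET1-/- libraries was 856 CPM, 939 with TMM factors, 957 with the common library size, and 97.3 to 1260 with a library left out, the lowest without replicate 1. Depth limits most of the values: at 0 counts a library allows 7.10 to 15.3 CPM.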

Other observations

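The file of TET1-/- replicate 1 ends its lines with a line feed alone, while those of the other 5 libraries end them with a carriage return and a line feed. Whether that library was processed apart from the others was not tested.

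Grip2 and Nfkbiz were chosen after their values were seen. Among the counted transcripts with a symbol, Grip2 (uc012epd.2) was lowest in TET1-/- replicate 1, at 270 counts, against 568, 565 and 818 in TET1+/+ replicates 1, 2 and 3 and 1227 and 1780 in TET1-/- replicates 2 and 3. Grip2, which encodes a scaffold protein with PDZ domains, was thus low in the library where Edar and Klk15 were high. Nfkbiz (uc007zln.2), a nuclear regulator of NF-kappaB target genes, was as high there (791 counts) as in TET1+/+ replicate 1 by CPM, at 0.976 of its level, while TET1+/+ replicates 2 and 3 had 0 and 8 counts of it and TET1-/- replicates 2 and 3 had 341 and 10. High counts in TET1-/- replicate 1 were therefore shared with a TET1+/+ library for Nfkbiz and not for Edar or Klk15.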
